A study of Mus musculus with 23 samples.

Results

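Myostatin, the activin receptors and the TGF-beta ligands form a signalling family that restrains muscle growth, and 10 of its genes were followed through the quadriceps of mice treated with corticosterone. The genes were Mstn, Tgfb1 and Tgfb2 (ligands), Acvr2a and Acvr2b (receptors), Fst, Fstl3 and Fstl1 (follistatin and its relatives) and Smad3 and Smad7 (intracellular SMAD proteins). They were chosen by name and matched by symbol to 10 of the 55573 Ensembl gene IDs of the count table, and all 10 passed the filter on low counts. Quadriceps muscle came from C57BL/6J mice of 8 to 10 weeks of age that carried a slow-release pellet under the skin for 14 days and were fasted for 5 hours before they were killed. Corticosterone, the main glucocorticoid of mice, was given as 50 mg with 50 mg of cholesterol, and vehicle pellets held 100 mg of cholesterol. The groups were 6 vehicle-treated and 5 corticosterone-treated females and 6 vehicle-treated and 6 corticosterone-treated males, here called Female_VEH, Female_CORT, Male_VEH and Male_CORT. Each mouse is named by F or M and its number.

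Ligands of this family are secreted and bind a type II receptor such as ACVR2A or ACVR2B, which activates a type I receptor such as ACVR1B or TGFBR1. The receptors phosphorylate SMAD3 and its close relative SMAD2, which join SMAD4 and enter the nucleus, whereas SMAD7 blocks the receptors. Follistatin and FSTL3 trap myostatin and activins outside the cell, and FSTL1 is a secreted glycoprotein with a follistatin-like domain. Myostatin is made by muscle fibres, and mice without it grow enlarged muscles.

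The libraries held 20904150 to 21984477 counts on genes, a nearly equal depth. Gene positions are on GRCm38. Levels below are CPM, in which each library's counts are scaled to the same effective size, and 3 counts made at most 0.166 CPM. The 6 markers of muscle fibres, among them Acta1 and Ckm, summed to between 70585 and 192551 CPM and none was at 0 in any group. Other cell types were present in uneven amounts. The 5 adipocyte markers summed to between 24.8 and 3509 CPM in Female_CORT, and the 6 hepatocyte markers, a liver signal, were highest in M8 (2420 CPM), F10 (2339), M9 (1422), M12 (1414) and F6 (1072), against at most 312 CPM in every other mouse. CPM of Myh2, the myosin of type 2A fibres, ranged from 18.2 in M9 to 4623 in F8. In whole muscle, fewer cells of a type and less RNA per cell cannot be told apart.

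The start regions of 4 of the genes are shown because these are the genes whose treatment response is described most closely here. RefSeq promoter sequences on GRCm38.p6 matched 8 of the 10 genes (not Fst or Smad7), and the bases upstream of the annotated start are printed 5′ to 3′ on the strand of the gene, cut where an annotated exon begins. Capitals mark matches on either strand to AGAACA, an arm of the glucocorticoid receptor site, to CAGAC, a short sequence that SMAD proteins bind, and to TATAAA, the core promoter element that positions transcription.
Smad3, minus strand, chr9:63757995-63758244: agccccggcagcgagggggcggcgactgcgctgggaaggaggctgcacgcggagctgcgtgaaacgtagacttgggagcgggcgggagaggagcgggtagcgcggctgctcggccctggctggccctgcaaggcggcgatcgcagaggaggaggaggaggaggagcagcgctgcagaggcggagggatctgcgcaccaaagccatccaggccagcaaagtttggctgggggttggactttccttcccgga
Fstl1, plus strand, chr16:37776805-37776872: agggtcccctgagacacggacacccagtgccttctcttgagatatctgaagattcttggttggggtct
Fstl3, plus strand, chr10:79777024-79777271: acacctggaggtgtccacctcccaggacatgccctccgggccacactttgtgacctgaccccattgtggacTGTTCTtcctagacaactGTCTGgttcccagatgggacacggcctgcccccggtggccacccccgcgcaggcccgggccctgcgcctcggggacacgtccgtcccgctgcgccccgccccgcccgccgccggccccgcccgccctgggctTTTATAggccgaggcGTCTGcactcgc
Mstn, plus strand, chr1:53061390-53061639: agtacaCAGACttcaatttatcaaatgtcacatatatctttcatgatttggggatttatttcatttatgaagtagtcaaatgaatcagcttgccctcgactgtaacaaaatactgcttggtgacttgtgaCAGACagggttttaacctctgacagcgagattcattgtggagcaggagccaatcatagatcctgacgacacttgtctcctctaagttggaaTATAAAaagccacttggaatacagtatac
In the 250 bases before the RefSeq start, AGAACA or its complement TGTTCT was found in 1 of the 8 genes (Fstl3) and in 16.1% of 32851 RefSeq promoters. CAGAC or GTCTG was found in 5 of the 8, namely Mstn, Tgfb2, Acvr2a, Acvr2b and Fstl3, and in 42.2% of all promoters. TATAAA or TTTATA was found in 3 of the 8 (Mstn, Tgfb2 and Fstl3) and in 12.4% of all. The arms AGAACA and TGTTCT placed 3 bases apart, the full receptor palindrome, were in none of the 8 and in 3 of the 32851, and neither GTAAACA (a forkhead sequence, in 3.17% of all promoters) nor CAGCTG (an E-box, in 13.0%) was in any of the 8. Smad3 and Fstl1 held no match to any of these letters in the 250 bases. For Fstl1, 182 of these bases lay inside the annotated gene, so only the 68 upstream bases are printed above. The Mstn window was 38.4% G and C, against 69.2% for Smad3, 71.2% for Fstl3 and a median of 52.4% over all promoters. It was 68.0% for Fstl1, a value of all 250 bases that holds mostly for the unprinted part inside the gene.

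Per kilobase of exon, Mstn was the most abundant of the 10, with 28.8 CPM per kilobase as the mean of the 4 group means. Fstl1 (15.5) and Smad3 (14.1) followed on the same scale. Acvr2a reached 3.94, Tgfb2 2.97, Acvr2b 1.77, Tgfb1 1.27 and Smad7 1.08 CPM per kilobase. Fst and Fstl3, which encode the ligand traps, were lowest at 0.846 and 0.762. Fstl3 rested on 13 to 109 counts per mouse and Fst on 21 to 148, so these were the least precisely counted of the genes.

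**Figure D1:**
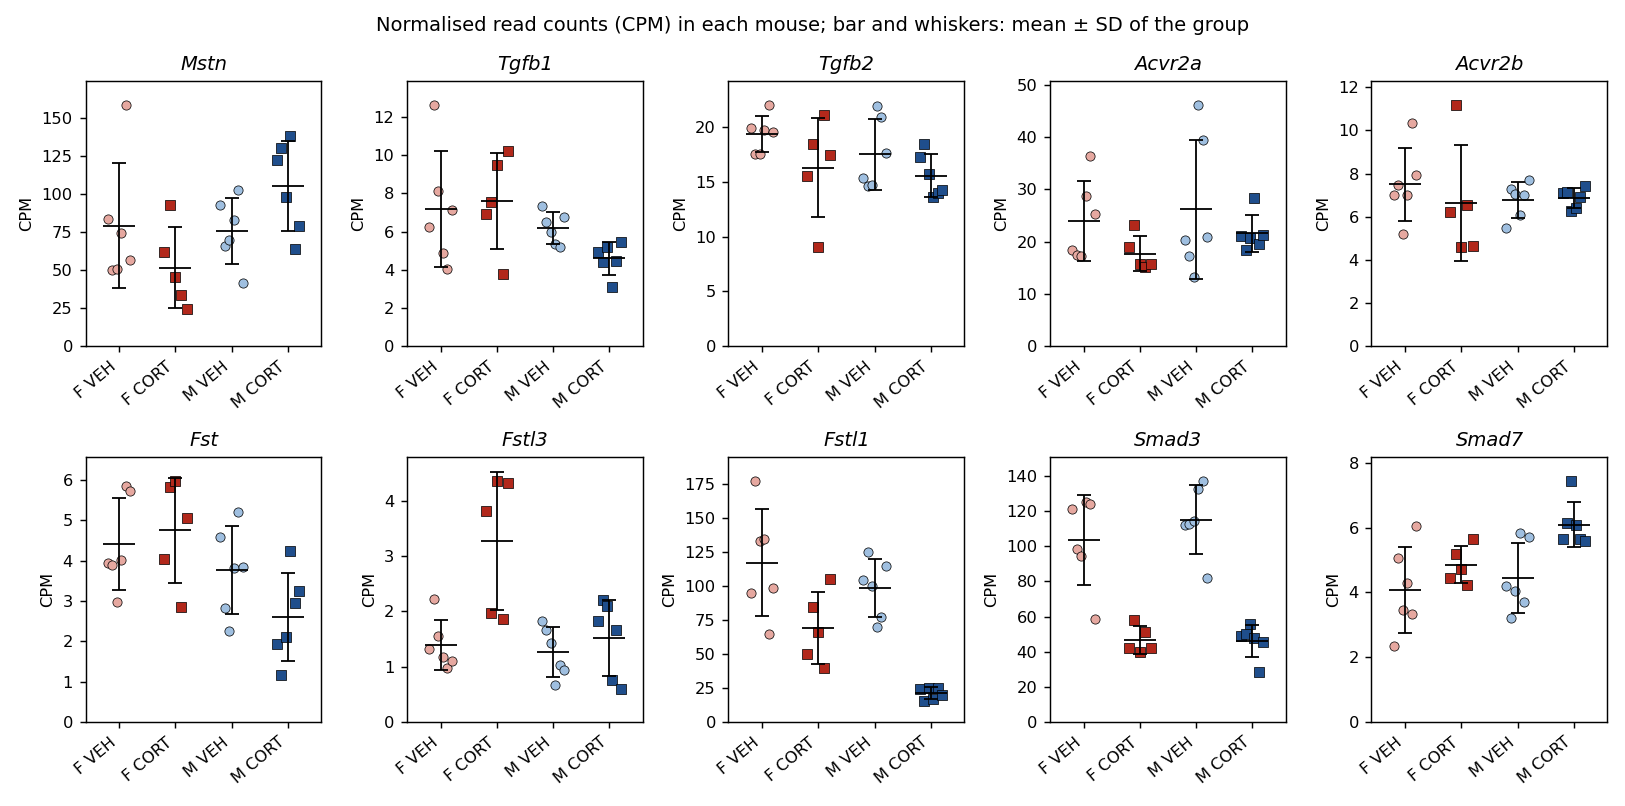
Normalised read counts (CPM, vertical axes starting at 0) of the 10 genes in each of the 23 mice, circles for vehicle (VEH) and squares for corticosterone (CORT), with females (F) in red and males (M) in blue. Horizontal bars and whiskers are group means ± SD; Smad3 separates the treatments in both sexes, and Fstl1 in Male_CORT lies between 15.3 and 25.2 CPM, under every other group.

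The first question was which of these genes responded to corticosterone in males. Fstl1 and Smad3 fell, and none rose. These 2 of the 10 genes stand against 26.3% of the 13049 tested genes that passed the same threshold (adjusted p under 0.01 by edgeR's quasi-likelihood test), so the share among the 10 was close to that of the transcriptome. The median log2 fold change (log2FC) of the 10 was -0.23, against -0.02 over all tested genes. In females Smad3 fell and Fstl3 rose, again 2 of the 10, against 13.4% of all tested genes. Here the median log2FC was -0.21 for the 10 and 0.04 over all tested genes.

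**Figure D2:**
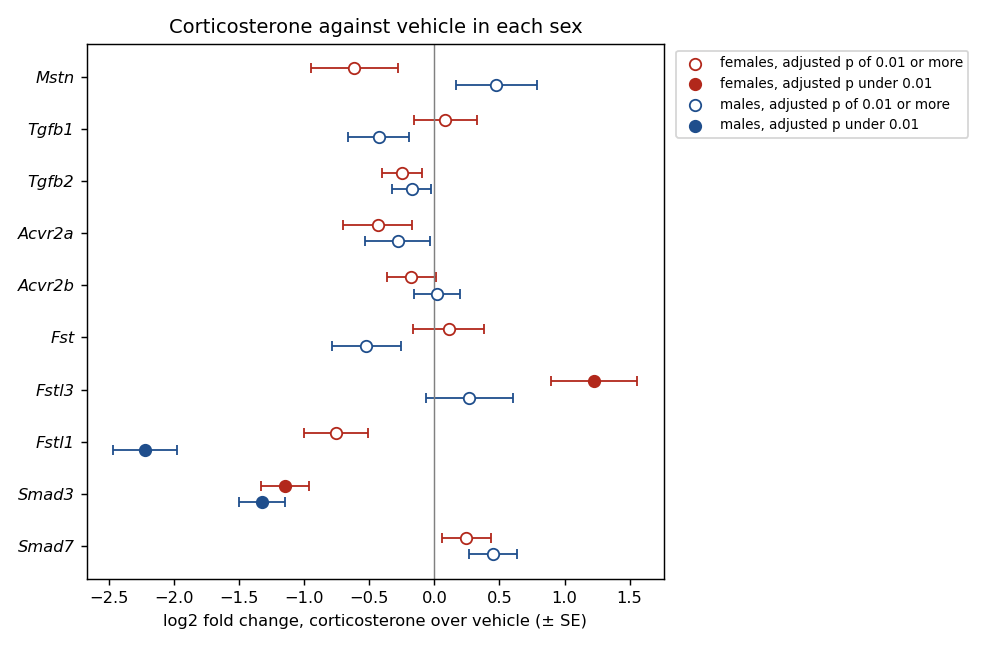
Log2 fold changes of corticosterone over vehicle with their standard errors (horizontal axis) for the 10 genes in females (red) and males (blue), filled where the adjusted p was under 0.01. Filled points are Fstl1 at -2.23 and Smad3 at -1.33 in males, and Smad3 at -1.15 and Fstl3 at 1.23 in females.

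Among the ligands, Mstn (chr1:53061640-53068079) had opposite signs in the sexes, with no call in either. Female_VEH mice ranged from 50.3 to 158 CPM (median 65.4), and Female_CORT mice had 24.5, 33.3, 45.7, 62.1 and 92.4 CPM (F10, F8, F6, F2 and F4). Male_VEH mice ranged from 41.7 to 102 CPM (median 76.0) and Male_CORT mice from 64.0 to 138 CPM (median 110). The treated females included the lowest mice of the series and the treated males 3 of the 4 highest, yet vehicle and treated mice overlapped in both sexes. The log2FC was -0.61 in females (SE 0.33, edgeR adjusted p = 0.176) and 0.47 in males (SE 0.31, edgeR adjusted p = 0.237). The interaction was 1.09 (SE 0.46, unadjusted p = 0.0257, edgeR adjusted p = 0.106) and kept its sign in all 32 alternatives, from 0.77 to 1.41, with adjusted p from 0.0231 to 0.441. In order of the mean, Male_CORT (105 ± 29.8 CPM, n = 6) stood above Female_VEH (79.0 ± 41.1 CPM, n = 6), Male_VEH (75.7 ± 21.6 CPM, n = 6) and Female_CORT (51.6 ± 26.8 CPM, n = 5), and each neighbouring pair overlapped.

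Mstn varied within groups with the myosins of other fibre types. Scores of 12 cell types were compared with it, each the mean log2 CPM of its markers. As deviations from the group means, log2 CPM of Mstn and Myh2 had r = -0.65 over 23 mice (permutation p = 7.4e-04, adjusted over the 12 scores 0.00888) and rho = -0.67 (permutation p = 6.4e-04, adjusted 0.00558). Without M8 and M9 r was -0.68. Within Female_VEH it was -0.93, within Male_VEH -0.66 and within Male_CORT -0.47 (n = 6 each). The slow fibre score (the slow myosin Myh7, Tnnc1, Tnnt1 and Myl3) gave r = -0.54 (permutation p = 0.00806, adjusted 0.0322) and rho = -0.66 (permutation p = 9.3e-04, adjusted 0.00558), and r = -0.59 without M5 and M3. The endothelial score gave r = -0.58 (permutation p = 0.00356, adjusted 0.0214), rho = -0.57 (permutation p = 0.00565, adjusted 0.0226) and r = -0.42 without F9 and F3. The other 9 scores did not pass 0.05 after adjustment.

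Some mice at the ends of the Mstn range were also at the ends for Myh2, and others were not. F9, with the highest Mstn of all at 158 CPM, had 30.4 CPM of Myh2, and M8 and M9, with 138 and 102 CPM of Mstn, had 22.0 and 18.2 CPM. M4 and M2, which lay above M9 for Mstn at 130 and 122 CPM, had 1871 and 1202 CPM of Myh2. F8 and F10, with the lowest Mstn at 33.3 and 24.5 CPM, had 4623 and 2948 CPM. Myh2 itself did not pass for treatment, with a log2FC of 1.12 in females (SE 0.97, adjusted p = 0.419) and 0.39 in males (SE 0.92, adjusted p = 0.767). The part of fibre type in the Mstn values of the groups was not tested.

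The genes most like Mstn across the 23 mice were Dcaf8 (Pearson's r of log2 CPM 0.95), Eya4 (0.92) and Ccdc6 (0.91), and those most unlike it were Adamts8 (-0.90), Slc12a4 (-0.88) and Acer3 (-0.86). Taken as deviations from group means, these r were 0.95, 0.90, 0.87, -0.87, -0.84 and -0.81 in the same order. These 6 were picked as the extremes of all tested genes, so no p is given.

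Tgfb1 and Tgfb2 passed in neither sex. Tgfb1, a ligand with broad roles in matrix and immune cells, ranged from 5.17 to 7.34 CPM in Male_VEH (median 6.24) and from 3.09 to 5.46 CPM in Male_CORT (median 4.68), with a log2FC of -0.43 (SE 0.24, adjusted p = 0.156). In females it ranged from 4.06 to 12.6 CPM and from 3.79 to 10.2 CPM (log2FC 0.08, SE 0.24, adjusted p = 0.834). Tgfb2 was more even, from 14.6 to 21.9 CPM in Male_VEH and from 13.6 to 18.4 CPM in Male_CORT (log2FC -0.17, SE 0.15, adjusted p = 0.372). Female_VEH mice had 17.5 to 22.0 CPM and Female_CORT mice 9.05 to 21.1 CPM (log2FC -0.25, SE 0.16, adjusted p = 0.249), where F6 alone lay under 15 CPM.

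The type II receptors passed in neither sex. Acvr2a ranged from 13.2 to 46.1 CPM in Male_VEH and from 18.5 to 28.4 CPM in Male_CORT (log2FC -0.28, SE 0.25, adjusted p = 0.391). Female_VEH mice had 17.2 to 36.5 CPM and Female_CORT mice 15.1 to 23.1 CPM (log2FC -0.43, SE 0.27, adjusted p = 0.236). Acvr2b was narrower in males, from 5.47 to 7.72 CPM with vehicle and from 6.25 to 7.41 CPM with corticosterone (log2FC 0.02, SE 0.18, adjusted p = 0.933). In females it ranged from 5.22 to 10.4 CPM and from 4.61 to 11.2 CPM (log2FC -0.18, SE 0.19, adjusted p = 0.513). Treated and vehicle-treated mice overlapped for both receptors in both sexes.

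Acvr2a and Fst shared with Mstn the inverse relation to Myh2 within groups. For Acvr2a r was -0.76 over 23 mice (permutation p = 8e-05, adjusted over 108 relations 0.00288), rho was -0.74 (permutation p = 6e-05, adjusted 0.00486) and r without M8 and M9 was -0.73. It was -0.84 within Female_VEH, -0.80 within Male_VEH and -0.97 within Male_CORT (n = 6 each). For Fst r was -0.67 (permutation p = 5.5e-04, adjusted 0.00743), rho was -0.70 (permutation p = 2.7e-04, adjusted 0.00486) and r without M8 and M9 was -0.55. Both were also inverse to the erythrocyte score (Hbb-bs, Hba-a1, Hba-a2 and Alas2). Here r was -0.62 for Acvr2a (permutation p = 0.00181, adjusted 0.014) and -0.63 for Fst (permutation p = 0.00104, adjusted 0.0102). For Mstn that relation did not pass (r = -0.37). Both were inverse to the slow fibre score too. There r was -0.69 for Acvr2a (permutation p = 2.7e-04, adjusted 0.00478) and -0.56 for Fst (permutation p = 0.00593, adjusted 0.0337). Fst was inverse to the muscle fibre score (r = -0.63, permutation p = 0.00126, adjusted 0.011), but not in every group. That r was -0.94 within Male_VEH and -0.86 within Male_CORT, against 0.21 within Female_VEH (n = 6 each). Tgfb1 varied most closely with the smooth muscle score (Acta2 and Myh11), with r = 0.82 (permutation p = 2e-05, adjusted 0.00216), rho = 0.74 (permutation p = 1.9e-04, adjusted 0.00486) and r = 0.69 without F3 and F9. The relation was not particular to that score. Its r also passed with fibroblasts (0.72, adjusted permutation p = 0.00324), macrophages (0.65, 0.0078) and Schwann cells (0.62, 0.011). The adipocyte and endothelial scores each gave r = 0.54 (adjusted 0.0397), but their rho did not pass (adjusted 0.0695 and 0.105). Of the 108 relations between the 9 genes other than Mstn and the 12 scores, 23 had an adjusted p of r under 0.05.

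Follistatin, encoded by Fst, passed in neither sex. Male_VEH mice ranged from 2.25 to 5.22 CPM (median 3.83) and Male_CORT mice from 1.16 to 4.24 CPM (median 2.52), with a log2FC of -0.52 (SE 0.27, adjusted p = 0.122). Female_VEH mice ranged from 2.98 to 5.86 CPM and Female_CORT mice from 2.85 to 5.98 CPM (log2FC 0.11, SE 0.27, adjusted p = 0.800). The groups overlapped in both sexes.

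Fstl3 (chr10:79777272-79782630), a trap for myostatin and activins, rose in females, unevenly between mice. Female_VEH mice ranged from 0.977 to 2.23 CPM (median 1.25). Female_CORT mice had 3.82 CPM in F2, 4.36 in F6 and 4.33 in F10, but 1.97 in F4 and 1.87 in F8, which lay inside the vehicle range. The means were 1.39 ± 0.455 CPM (SD, n = 6) and 3.27 ± 1.25 CPM (SD, n = 5), with a log2FC of 1.23 (SE 0.33, edgeR adjusted p = 0.00962). In males the values overlapped throughout, from 0.669 to 1.82 CPM in Male_VEH and from 0.602 to 2.21 CPM in Male_CORT (log2FC 0.27, SE 0.33, adjusted p = 0.542). The responses did not differ past the threshold between the sexes (interaction log2FC -0.96, SE 0.47, adjusted p = 0.162).

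Among treated females, the mice with high Fstl3 were those with many adipocyte transcripts. Summed adipocyte markers were 1641 CPM in F2, 3509 in F6 and 1514 in F10, against 528 in F4 and 24.8 in F8. Female_VEH mice F3 and F5 had sums of 1446 and 1560 CPM, with 2.23 and 1.55 CPM of Fstl3, but 1107 and 1198 CPM of these were Cfd alone. Without Cfd the sums were 339 in F3 and 363 in F5, against 1280 in F2, 2743 in F6, 1270 in F10, 353 in F4 and 17.6 in F8. Within groups, Fstl3 and the adipocyte score gave r = 0.39 over 23 mice (permutation p = 0.0681, adjusted 0.175) and r = 0.16 without F8 and M7. The rho was 0.35 (permutation p = 0.106, adjusted 0.226). The sign differed between groups, with r = 0.48 within Female_VEH, 0.86 within Male_VEH and -0.77 within Male_CORT (n = 6 each). Fstl3 was more closely related to the erythrocyte score, with r = 0.68 (permutation p = 3.1e-04, adjusted 0.00478). Its rho was 0.72 (permutation p = 2e-04, adjusted 0.00486). The smooth muscle score gave r = 0.59 (permutation p = 0.00244, adjusted 0.0155). Summed erythrocyte markers were 480 CPM in F2, 527 in F6 and 573 in F10, against 285 in F4 and 448 in F8. Without F2, F6 and F10 the log2FC of Fstl3 in females was 0.45 (adjusted p = 0.644, 2 treated females remaining). The call was lost in 22 of 32 alternatives, 15 of which left out 1 mouse. Apart from the fit without F2, F6 and F10, the log2FC in these lay between 1.08 and 1.44, with adjusted p from 0.0102 to 0.0519. It was kept with DESeq2 and limma-voom and when F3, F4, F8, M1, M7, M4, M8 or M12 was left out. The part of the adipocytes or of other cell types in the Fstl3 values was not tested.

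Fstl1 (chr16:37776873-37836514) showed the largest difference of the 10 genes, in males. Male_VEH mice ranged from 70.0 to 125 CPM (median 102) and Male_CORT mice from 15.3 to 25.2 CPM (median 22.0). The groups were far apart, with means of 98.3 ± 21.3 CPM and 21.0 ± 4.27 CPM (SD, n = 6 each), a 4.68-fold fall. The log2FC was -2.23 (SE 0.24, edgeR adjusted p = 6.33e-07) and lay between -2.31 and -2.15 in the 32 alternatives, all past the threshold. In females Female_VEH mice ranged from 64.5 to 177 CPM (median 116), and Female_CORT mice had 39.7, 49.6, 66.1, 84.6 and 105 CPM (F8, F2, F6, F4 and F10). These groups overlapped, and the log2FC of -0.76 (SE 0.25, edgeR adjusted p = 0.0263) missed the threshold. It passed with DESeq2 (adjusted p = 0.00924) and without F10 (log2FC -0.99, adjusted p = 0.00887).

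The responses of Fstl1 in males and females differed by a log2FC of -1.47 (SE 0.34, interaction, edgeR adjusted p = 0.0159), short of the threshold. None of the 10 genes passed for the interaction in edgeR, where 0.690% of all tested genes did and 2 of the 10, Fstl1 and Mstn, had an unadjusted p under 0.05, against 32.1% of all. With DESeq2 the interaction of Fstl1 passed (adjusted p = 0.00124), as with limma-voom (adjusted p = 0.00669), without F3 (adjusted p = 0.00700) and without F8 (adjusted p = 0.00290). Over the alternatives its adjusted p ranged from 0.00124 to 0.119.

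Markers of fibroblasts, the connective tissue cells of muscle, moved with Fstl1. In males 5 of the 6 markers fell, and their summed level went from 559 to 856 CPM in Male_VEH to between 96.7 and 155 CPM in Male_CORT. Those that fell were Col1a1 (log2FC -3.26), Col3a1 (-3.96), Lum (-1.91), Pi16 (-2.68) and Dpt (-1.20), most of them genes of the matrix. Pdgfra, the receptor that defines these cells, did not pass, with a log2FC of -0.35 (SE 0.13, adjusted p = 0.0337). In females 2 of the 6 fell, Col3a1 (-1.34) and Lum (-0.98), with sums of 513 to 1277 CPM in Female_VEH and 176 to 582 CPM in Female_CORT. No fibroblast marker was at 0 in any group.

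Fstl1 also followed these markers from mouse to mouse within groups. Taken as deviations from the group means, log2 CPM of Fstl1 and the fibroblast score had Pearson's r = 0.74 over 23 mice (permutation p = 7e-05, adjusted over 108 relations 0.00288) and Spearman's rho = 0.71 (permutation p = 2.3e-04, adjusted 0.00486). Without F8 and F3, the mice farthest from the median score, r was 0.64. It was 0.89 within Female_VEH, 0.75 within Male_VEH and 0.19 within Male_CORT (n = 6 each). Fstl1 followed the macrophage score (Cd68, Adgre1, Csf1r, Mrc1 and C1qa) about as closely. Its r was 0.71 (permutation p = 1.5e-04, adjusted 0.00324), and 0.62 without F8 and M7. The rho was 0.63 (permutation p = 0.00142, adjusted 0.0153). The smooth muscle score gave r = 0.64 (permutation p = 9.5e-04, adjusted 0.0102). Within Male_CORT several other scores gave a higher r than fibroblasts, such as 0.72 for endothelial cells. The part of the fibroblasts or of other cell types in the fall of Fstl1 was not tested.

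**Figure D3:**
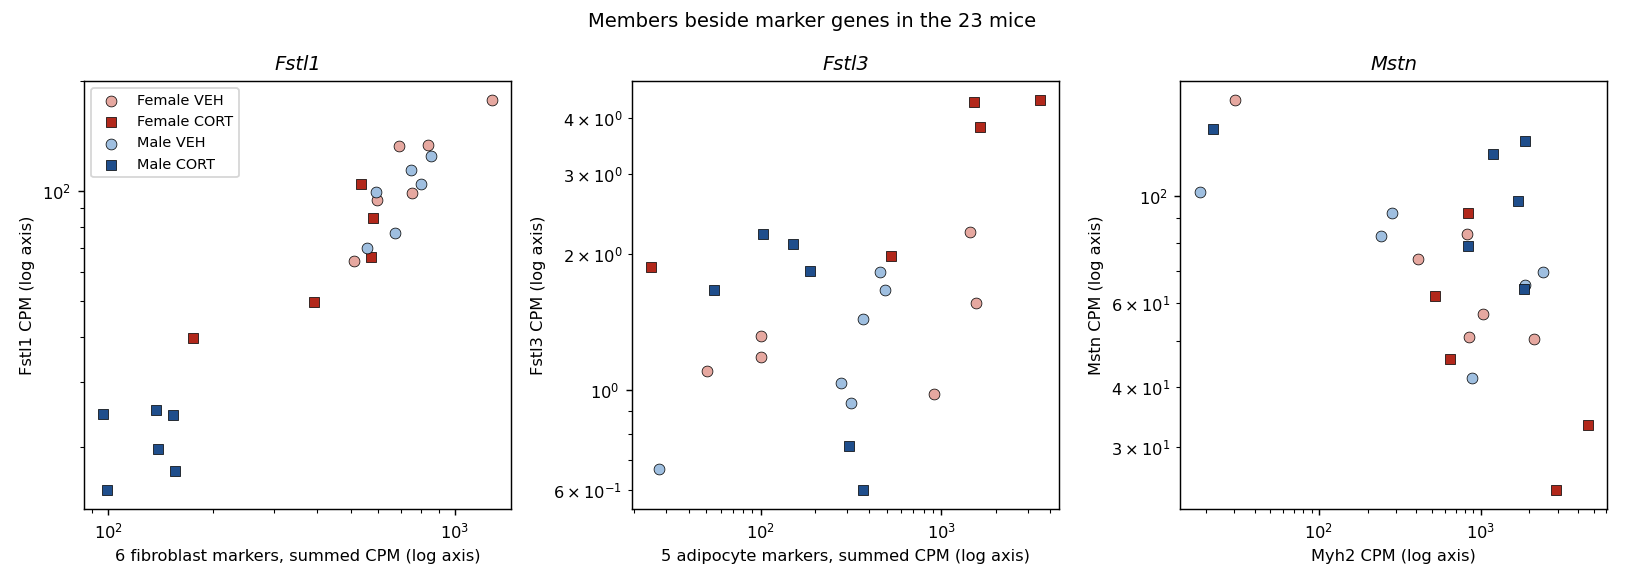
CPM of Fstl1, Fstl3 and Mstn (vertical axes, log scale) in the 23 mice against the summed CPM of 6 fibroblast markers, of 5 adipocyte markers and of Myh2 (horizontal axes, log scale), 1 point per mouse with circles for vehicle and squares for corticosterone. The 6 Male_CORT mice sit apart at low Fstl1 and fibroblast marker levels, F2, F6 and F10 stand highest for Fstl3, and F9, M9 and M8 combine the lowest Myh2 with over 100 CPM of Mstn.

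Smad3 (chr9:63646767-63757994), which carries the myostatin and activin signal to the nucleus, fell in both sexes. Male_VEH mice ranged from 82.0 to 137 CPM (median 114) and Male_CORT mice from 28.6 to 55.7 CPM (median 48.3). Female_VEH mice ranged from 58.9 to 125 CPM (median 110). Female_CORT mice had 39.6, 42.0, 42.2, 51.4 and 58.2 CPM (F6, F2, F10, F8 and F4). No corticosterone-treated mouse reached the lowest vehicle-treated mouse of its sex, although in females F4 came within 1 CPM of F11. The means were 115 ± 19.5 CPM and 46.0 ± 9.19 CPM (SD, n = 6 each) in males, a 2.51-fold fall, and 104 ± 25.7 CPM (SD, n = 6) and 46.7 ± 7.89 CPM (SD, n = 5) in females, a 2.22-fold fall. In males the log2FC was -1.33 (SE 0.17, edgeR adjusted p = 5.25e-06), and in females -1.15 (SE 0.18, edgeR adjusted p = 1.68e-04). The response did not differ detectably between the sexes (interaction log2FC -0.17, SE 0.25, adjusted p = 0.655).

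In males, Smad3 remained past the threshold in all 32 alternative analyses, with log2FC from -1.41 to -1.22. In females it remained so in 30 of 32. The exceptions left out F2, F6 and F10 (log2FC -0.93, adjusted p = 0.0504, with 2 treated females remaining) or the 9 libraries with over 100 CPM of Myh7 (log2FC -1.15, adjusted p = 0.0172, again with 2 treated females remaining, F4 and F6). Groups that did not overlap were found for 2 of the 10 genes in males, Fstl1 and Smad3, against 21.9% of all tested genes, and for 1 of the 10 in females, Smad3, against 7.73%. Within groups, no relation of Smad3 to the 12 cell type scores passed 0.05 after adjustment, where the smallest adjusted p of Pearson's r was 0.195, with the Schwann cell score (r = -0.37, permutation p = 0.0818, and -0.27 without M9 and F7). Its rho was -0.53 (permutation p = 0.0110, adjusted 0.0594).

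Smad7, the inhibitory SMAD, passed in neither sex. Male_VEH mice ranged from 3.22 to 5.83 CPM (median 4.13) and Male_CORT mice from 5.60 to 7.45 CPM (median 5.87). Only M7 and M11 of the vehicle-treated males lay above the lowest treated male. The log2FC was 0.45 in males (SE 0.18, adjusted p = 0.0528) and 0.25 in females (SE 0.19, adjusted p = 0.361). Female_VEH mice spanned 2.34 to 6.04 CPM and held the whole range of Female_CORT, 4.23 to 5.64 CPM.

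The sexes were next compared with each other under each treatment. Whether samples of the sexes were processed together is not given in the sources used here, so a difference in processing and a difference between the sexes cannot be told apart. In vehicle-treated mice none of the 10 genes passed in edgeR, against 0.958% of all tested genes, and none had an unadjusted p under 0.05, against 13.2%. None passed in any of the 32 alternatives. Log2FC of males over females lay between -0.25 for Fstl1 and 0.15 for Smad3. In corticosterone-treated mice 1 of the 10, Fstl1, passed, against 23.3% of all tested genes, and it was lower in males. Its log2FC was -1.71 (SE 0.25, edgeR adjusted p = 7.16e-05), and every Male_CORT mouse (at most 25.2 CPM) lay under every Female_CORT mouse (at least 39.7 CPM).

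Another 4 of the 10 had an unadjusted p under 0.05 between corticosterone-treated males and females but missed the threshold. With Fstl1 these were 5 of the 10, against 47.9% of all tested genes, so the share was close to that of the transcriptome. Mstn had a log2FC of 1.03 (SE 0.33, edgeR adjusted p = 0.0190), a 2.04-fold higher level in males. The ligand traps lay the other way, Fst at -0.86 (SE 0.28, edgeR adjusted p = 0.0173) and Fstl3 at -1.11 (SE 0.33, edgeR adjusted p = 0.0121), as did Tgfb1 at -0.73 (SE 0.25, edgeR adjusted p = 0.0234). Mice of the sexes overlapped for each of these 4. With DESeq2, Mstn (adjusted p = 0.00461), Fst (0.00893) and Fstl3 (0.00601) passed, and with limma-voom Fst (0.00617) and Fstl3 (0.00252). Mstn also passed without F9 (adjusted p = 0.00876) or F4 (0.00359), Fst without F8 (0.00659) or M8 (0.00598), Fstl3 without F4 (0.00668) or F8 (0.00528) and Tgfb1 without F8 (0.00364). Without F2, F6 and F10 the log2FC of Fstl3 was -0.32 (adjusted p = 0.688).

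Another 62 genes of the pathway, a list of ligands, receptors, extracellular regulators, SMAD proteins and targets, gave the surroundings of the 10, and 55 of them were tested. Gdf5, Gdf6, Wfikkn1, Ltbp2, Grem1, Tll1 and Smad9 did not pass the filter. In males 7 rose and 9 fell, 29.1% of the 55 against 26.3% of all tested genes, and their median log2FC was -0.14. In females 4 rose and 1 fell, 9.09% against 13.4%, with a median of 0.08. Without F2, F6 and F10 none of the 55 passed in females, where 0.996% of all tested genes did.

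Of the 11 other receptors and co-receptors 2 rose and 1 fell in males (27.3%). Of the 14 other SMADs and intracellular regulators tested 2 rose and 1 fell (21.4%). Both shares were close to the 26.3% of all tested genes. Acvr1b, a type I receptor used by myostatin and activins, went from 37.3 to 65.3 CPM in Male_VEH to between 116 and 167 CPM in Male_CORT, without overlap (log2FC 1.44, SE 0.21, edgeR adjusted p = 1.81e-05). Female_CORT mice had 60.4 to 89.2 CPM and Female_VEH mice 34.1 to 92.3 CPM (log2FC 0.38, SE 0.22, adjusted p = 0.203). Tgfbr1, another type I receptor of the family, rose by a log2FC of 0.67 in males, and Acvr1, a receptor mainly of BMPs, fell (log2FC -0.66). The common partner Smad4 ranged from 46.0 to 54.6 CPM in Male_VEH and from 68.7 to 89.9 CPM in Male_CORT (log2FC 0.66, SE 0.08, edgeR adjusted p = 2.13e-06). In females it had 42.7 to 61.1 CPM with vehicle and 46.4 to 55.1 CPM with corticosterone (log2FC 0.07, SE 0.08, adjusted p = 0.593). Smad4 was the only one of the 55 to pass for the interaction (log2FC 0.59, SE 0.12, edgeR adjusted p = 0.00830). Tgif1, a repressor that binds SMADs, rose by 1.21 in males, and the ubiquitin ligase gene Smurf1 fell by 0.40.

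Of the 10 other ligands tested, 1 rose and 2 fell in males (30.0%). Of the 14 extracellular regulators tested, 2 rose and 4 fell (42.9%), against 26.3% of all tested genes. In males Bmp7 (log2FC -2.61) and Bmp4 (-0.75) fell and Tgfb3 rose (0.47). Among regulators Bmp1 (-1.37), a protease that activates latent myostatin, fell, as did Ltbp4 (-1.30) and Ltbp1 (-0.71), which store latent TGF-beta in the matrix. The integrin gene Itgav also fell, and Wfikkn2, an inhibitor of myostatin, and Furin, a protease that cleaves ligand precursors, rose. Of the 6 target genes 1 fell (16.7%, under the share of all tested genes), Tgfbi (-0.87). In females Nog (-1.43), a BMP antagonist, fell.

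Inhbb and Chrdl1 led the rises in females. Inhbb, a subunit of activin B, ranged from 0.882 to 2.66 CPM in Female_VEH and was 3.20, 6.41, 8.72, 10.5 and 13.0 CPM in Female_CORT (F8, F2, F4, F10 and F6; log2FC 2.23, SE 0.38, edgeR adjusted p = 2.84e-04). Every treated female lay above every vehicle-treated female, and the lowest of them, F8, was also the lowest for adipocyte markers. Chrdl1, a BMP antagonist, had 2.41, 17.5, 21.2, 25.7 and 37.5 CPM in Female_CORT (F8, F4, F2, F10 and F6), against 1.17 to 9.14 CPM in Female_VEH (log2FC 2.29, SE 0.46, edgeR adjusted p = 0.00118), so that F8 lay inside the vehicle range. In males neither passed (Inhbb log2FC 0.17, adjusted p = 0.731; Chrdl1 0.33, adjusted p = 0.586), and neither passed for the interaction (adjusted p = 0.0202 and 0.0479). Tgfbr3 (0.65), a co-receptor, and Ltbp3 (0.56) also rose in females.

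**Figure D4:**
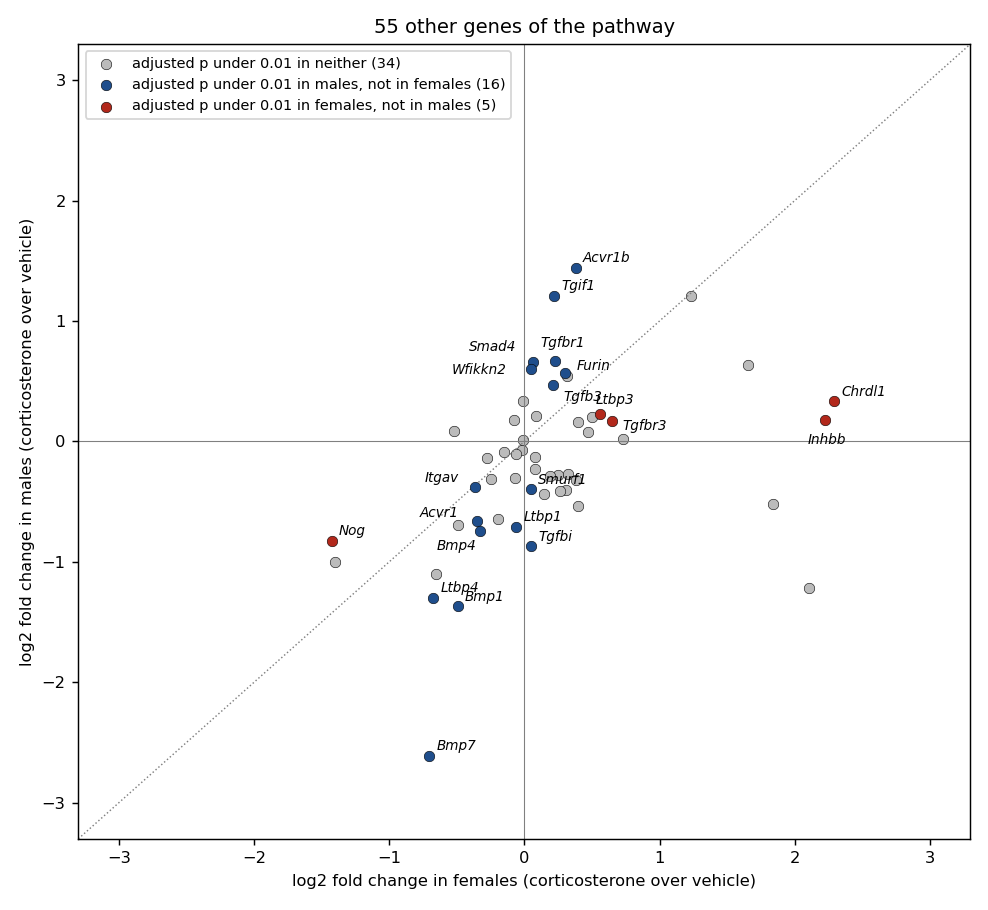
Log2 fold changes of corticosterone over vehicle in females (horizontal axis) and males (vertical axis) for the 55 other pathway genes tested, coloured by the sex in which the adjusted p was under 0.01, with a dotted line of equal change. Acvr1b, Tgif1 and Smad4 lie above the centre and Inhbb and Chrdl1 at the right.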

How the data were processed

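RNA of 23 quadriceps samples was sequenced as stranded mRNA libraries with paired reads of 100 bases. The authors aligned read pairs to mm10 with STAR 2.7.3a, counted them per gene with HTSeq 0.12.4 using strand and Ensembl release 97, and deposited raw counts without normalization. Symbols and coordinates were taken from GENCODE M21 (GRCm38). The 5 summary entries (10.7% to 15.3% of read pairs) were left out. Counts were tested in R 4.3.3 with edgeR 4.0.16 (quasi-likelihood test, TMM, 1 model with 4 group means over all 23 mice) on the 13049 genes with over 20 median-of-ratios normalized counts in at least 4 mice of a group, with Benjamini-Hochberg adjustment over these genes and a threshold of 0.01. CPM used TMM library sizes, and log2 CPM a prior count of 1. Correlations were taken over deviations from group means with 100000 permutations (two-sided), each member against each cell type score (mean log2 CPM of its markers). The deviations were permuted over all 23 mice, not within groups, and the 4 subtracted group means were not allowed for. These permutation p-values are therefore somewhat too small, and adjusted values just under 0.05 are uncertain. Fits were checked on simulated counts.

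The 10 genes, the pathway list and the marker lists were chosen with earlier results of these data known. One gene of the pathway list is not reported here and is in no count of that list. From the list, the genes past the threshold are named, at most the 3 largest changes per role with values. Each mouse is 1 sample, so p-values measure the spread between mice. No pair of replicates agreed within sampling noise (lowest chi-square per degree of freedom 13.2). Genes on the opposite strand overlap Acvr2a (Orc4), Acvr2b, Tgfb2, Fst and Fstl3. Alternatives were DESeq2 1.42.0, limma-voom (limma 3.58.1) with quality weights, median-of-ratios scaling, filterByExpr (15045 genes), no filter (31922 genes), each sex alone, a replicate block, a log2FC limit of 1, a threshold of 0.05, leaving out M8 and F10, and leaving out each mouse. Leaving out F2, F6 and F10, and the libraries with over 100 CPM of Myh7, was chosen after seeing the data.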

Additional observations from a re-analysis of the deposited data

Results flagged for a closer look

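In 40 checks of 1 gene in 1 group, 3 mice stood far from the others of their group, and chance flags about 1 in 20 such groups. F9 had 158 CPM of Mstn, where the next vehicle-treated female had 83.6 CPM. M8 had 28.4 CPM of Acvr2a, where the next corticosterone-treated male had 21.3 CPM. M6 had 7.45 CPM of Smad7, where the next corticosterone-treated male had 6.13 CPM. F9 and M8 were also the mice of their groups with the lowest Myh2, at 30.4 and 22.0 CPM.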

How the results depend on the processing

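In males the same 2 genes, Fstl1 and Smad3, were called under all 32 alternatives, and the sign of Mstn held in each sex. In females the 2 calls became 1 with median-of-ratios scaling (13.4% of all tested genes), filterByExpr (11.6%) or no gene filter (4.21%). They also became 1 with each sex fitted alone (4.30%) or no M8 and F10 (8.94%). They became 0 without F2, F6 and F10 (0.996%) or without the Myh7-rich libraries (6.01%). With DESeq2 (18.8%) or a threshold of 0.05 (26.7%) they became 3, with Fstl1 added. Leaving out 1 mouse gave 1 to 2, where 1004 to 2359 of the 13049 tested genes passed. For the interaction 0 became 1 with DESeq2 (6.87% of all tested genes), limma-voom (5.31%) or a threshold of 0.05 (12.6%). With 1 mouse left out it was 0 to 1, where 1 to 893 of the 13049 tested genes passed. Between corticosterone-treated males and females 1 became 4 with DESeq2 (29.5% of all tested genes), 3 with limma-voom (26.3%) and 5 at a threshold of 0.05 (39.0%). It was 1 to 4 with 1 mouse left out, where 1885 to 3742 of the 13049 tested genes passed. Same-numbered F and M mice had correlations of their deviations from -0.38 to 0.48, with own number best for 4 of 11. In vehicle-treated pairs these correlations ran from 0.085 to 0.48, and in corticosterone-treated pairs from -0.38 to 0.24. The check could not settle whether such mice shared more than a number. A replicate block on it gave 2 calls in that comparison (Fstl1 and Mstn, adjusted p = 0.00171), none for the interaction or between vehicle groups, and moved the count over all genes from 3043 to 2262. Of the other pathway genes in males, 16 became 5 with a log2FC limit of 1. They became 14 to 17 with 1 mouse left out, where 2888 to 3643 of the 13049 tested genes passed. The share of all tested genes past a log2FC limit of 1 was not taken in either sex. In females 5 became 12 at a threshold of 0.05 (26.7% of all tested genes) and 9 with DESeq2 (18.8%). They became 3 with a log2FC limit of 1, 2 with each sex fitted alone (4.30%) and 0 without F2, F6 and F10 (0.996%). With 1 mouse left out the count ranged from 2 to 8. Over all 13049 tested genes 1748 passed in females with every mouse kept, and these counts moved as well. Without F1 or F6 the pathway count was 2, where 1313 and 1004 of all tested genes passed. Without F5, F7, F9, F2 or F10 it was 3 (1597, 1217, 1354, 1117 and 1204 of all tested genes). Without F4 it was 8 (2258 of all tested genes).

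Signs turned for 5 values far from the threshold, all but 1 in females. Without F2, F6 and F10 the log2FC in females was -0.35 for Tgfb1, 0.018 for Tgfb2, 0.23 for Acvr2b and -0.032 for Fst, and without M8 and F10 it was -0.068 for Tgfb1. With 1 mouse left out, Tgfb1 in females ranged from -0.074 to 0.33, Fst in females from -0.000898 to 0.25, and Acvr2b in males from -0.032 to 0.063. Another 19 values, in comparisons of the sexes, were not printed singly; none passed the threshold in their 608 refits, and 30 turned sign. The cause of these changes was not tested. Counts over all genes rose with DESeq2 in females from 1748 to 2458 and for the interaction from 90 to 896.

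Low counts limit Fstl3 and Fst, and 5 treated females, 3 of them rich in adipocyte transcripts, limit every statement on that group.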

Other observations

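Among the 10 genes themselves, 45 pairs were compared over 23 mice as deviations from group means, and 5 had an adjusted p of r under 0.05 (permutation tests). Because the permutations ignored the groups, the adjusted p-values between 0.04 and 0.05 are uncertain. Tgfb1 and Fstl1 varied together most closely, with r = 0.75 (permutation p = 2e-05, adjusted 0.000900), rho = 0.66 (permutation p = 8.4e-04, adjusted 0.0221) and r = 0.64 without F8 and F3. Mstn and Smad3 had r = 0.61 (permutation p = 0.00181, adjusted 0.0407), rho = 0.60 (permutation p = 0.00301, adjusted 0.0452) and r = 0.54 without F9 and F4. Acvr2a and Fst had r = 0.58 (permutation p = 0.00412, adjusted 0.0441), rho = 0.65 (permutation p = 9.8e-04, adjusted 0.0221) and r = 0.61 without M7 and M9. Acvr2a with Fstl3 (r = -0.56) and Tgfb1 with Fstl3 (r = 0.56) had the same adjusted p of r, 0.0441, and an adjusted p of rho of 0.05. Fstl3 and Mstn varied most within groups, with pooled SDs of 0.60 and 0.57 on the log2 CPM scale, and Tgfb2 least, with 0.28.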
